A study of Mus musculus with 35 samples.

Results

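The TGF-beta signalling pathway of CD45+ve microglia was followed through 10 genes: the ligands Tgfb1 and Tgfb2, the anchoring protein Nrros, the receptors Tgfbr1 and Tgfbr2, the signal transducers Smad2 and Smad3, the inhibitory Smad7, and the corepressors Ski and Skil. The genes were taken by name from the 55401 genes of the table, and all 10 passed the filter on low counts. Microglia were collected from whole brains of male and female C57Bl/6 wild-type mice at P6, P15 and 8 weeks, with a panning step in which dissociated cells bind to a dish coated with antibody against CD45, a surface protein of blood-derived and brain-resident immune cells. Each mouse gave 1 mRNA library. The table holds 35 mice, and P6 female 6, which the study removed as an outlier, was left out here, so that 34 mice were compared: 10 at P6 (4 females, 6 males), 12 at P15 and 12 at 8 weeks (6 of each sex). The labels name no transgene and no treatment, and age and sex are the only differences they give between the groups.

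TGF-beta is made as a latent complex, in which the growth factor is held by its own propeptide and must be released before it can act. In microglia and other myeloid cells the propeptide is anchored to the cell surface by the protein made from Nrros. The freed ligand joins the type II receptor Tgfbr2 to the type I receptor Tgfbr1, which phosphorylates Smad2 and Smad3. These enter the nucleus and switch genes on, whereas Smad7, itself a target of the pathway, blocks the receptor, and Ski and Skil hold SMAD complexes in a repressive state. In the mouse brain this pathway is known to be needed for microglia to acquire and keep their mature, homeostatic gene programme.

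Total gene counts per mouse lay between 23316107 and 38965078. Levels are given as CPM (counts scaled to a common library total) after scaling by the trimmed mean of M values (TMM), and levels of different genes are compared as RPKM, which also divides by the exonic length of the gene. The 6 microglial markers, among them Tmem119, P2ry12, Sall1, Fcrls and Siglech, were detected at every age. Their mean log2 CPM was 9.59 in P6 mice, 11.06 in P15 mice and 11.2 in 8-week mice. Markers of other cells were also present and moved with age. The summed level of 15 neuronal and neural progenitor markers ranged from 968 to 2900 CPM in P6 mice, from 214 to 1540 CPM in P15 mice and from 138 to 409 CPM in 8-week mice. None of these 15 markers was below 0.5 CPM on average at any age. The 6 markers of dividing cells had a median sum of 620 CPM at P6 and 13.4 CPM at 8 weeks, while other lists were higher in older mice. The summed level of 6 astrocyte markers ranged from 458 to 1170 CPM at P6, from 758 to 6850 CPM at P15 and from 1460 to 4370 CPM at 8 weeks. For 6 endothelial markers the sum was 45.1 to 121 CPM at P6 and 106 to 294 CPM at 8 weeks, and for 9 neutrophil and lymphocyte markers it had a median of 25.7 CPM and a highest value of 72.4 CPM at P6, with Cd3e and Nkg7 below 0.5 CPM on average, and a median of 81.9 CPM and a highest value of 225 CPM at 8 weeks. From P6 to 8 weeks 4 of the 6 astrocyte, 3 of the 6 endothelial and 7 of the 9 neutrophil and lymphocyte markers rose and 1, 0 and 0 fell, where 37.8% of all genes rose and 36.6% fell. The median summed level at P6, P15 and 8 weeks was 976, 860 and 483 CPM for border macrophage and monocyte markers, 598, 1430 and 505 CPM for the oligodendrocyte lineage and 652, 451 and 253 CPM for mural cells and fibroblasts. For choroid plexus and ependyma it was 35.7 CPM at P6 and 13.3 CPM at 8 weeks, with a mean log2 CPM of 1.35 at P15. The part of these non-neural markers in the results on the 10 genes was not tested. Since each library is a bulk sample, fewer cells of a type and less RNA per cell cannot be told apart.

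The sequences upstream of the ligand and receptor genes are shown because the members of each pair had different levels and, for the ligands, opposite changes with age. They are the 250 bases before the RefSeq start (build GRCm38.p6) of Tgfb1 (chr7:25686752-25687001, plus strand), Tgfb2 (chr1:186705990-186706239, minus strand), Tgfbr1 (chr4:47352972-47353221, plus strand) and Tgfbr2 (chr9:116175364-116175613, minus strand), written 5′ to 3′ on the strand of the gene. Capitals mark a GC box (GGGCGG or CCGCCC) or an E-box (CACGTG).
Tgfb1: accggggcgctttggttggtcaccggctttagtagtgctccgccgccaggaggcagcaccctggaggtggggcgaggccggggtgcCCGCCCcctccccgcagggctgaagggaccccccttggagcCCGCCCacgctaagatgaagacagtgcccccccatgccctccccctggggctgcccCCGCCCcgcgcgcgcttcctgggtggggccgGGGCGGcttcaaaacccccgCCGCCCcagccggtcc
Tgfb2: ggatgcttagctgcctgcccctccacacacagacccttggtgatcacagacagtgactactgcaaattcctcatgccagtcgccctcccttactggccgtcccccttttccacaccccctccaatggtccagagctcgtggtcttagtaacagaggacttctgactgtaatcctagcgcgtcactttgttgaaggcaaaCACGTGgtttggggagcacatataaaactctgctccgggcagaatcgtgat
Tgfbr1: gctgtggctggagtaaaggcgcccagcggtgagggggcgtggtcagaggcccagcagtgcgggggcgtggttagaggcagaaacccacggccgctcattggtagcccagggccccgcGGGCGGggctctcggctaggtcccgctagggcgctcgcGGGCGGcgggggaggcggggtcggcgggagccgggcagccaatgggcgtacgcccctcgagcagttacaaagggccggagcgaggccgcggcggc
Tgfbr2: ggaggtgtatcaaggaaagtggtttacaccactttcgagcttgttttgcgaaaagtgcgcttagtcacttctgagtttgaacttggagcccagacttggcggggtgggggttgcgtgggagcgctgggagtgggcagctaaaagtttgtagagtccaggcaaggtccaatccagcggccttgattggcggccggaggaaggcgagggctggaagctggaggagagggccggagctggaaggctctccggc
The Tgfb1 window held 5 GC boxes and the Tgfbr1 window held 2, whereas the windows of Tgfb2 and Tgfbr2 held none. The Tgfb2 window held 1 E-box, 51 bases before the start. Windows of 7 of the 10 genes were searched, and 4 of the 7 held a GC box, compared with 32.7% of all 32851 windows. Smad2, Smad7 and Skil were not searched, so that nothing is said here of motifs upstream of these genes. An E-box was found in 6.02% of all windows. The palindromic SMAD motif GTCTAGAC was found in 0.167% of all windows and in none of the 7. The GC boxes and the E-box did not overlap each other, both strands were searched, and a match describes the letters of the window and no more.

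Most of the 10 genes were higher in older microglia, and the later changes depended on whether the neural marker level was fitted as a covariate. From P6 to P15, 7 genes rose and 1 fell at a false discovery rate (FDR) under 0.05, with a median log2 fold change (log2FC) of 0.66 over the 10 genes and of -0.014 over all genes. Of the 17612 genes tested, 30.4% were higher and 31.4% were lower in this comparison. From P15 to 8 weeks, 5 of the 10 genes rose and 0 fell, with a median log2FC of 0.25, where 24% of all genes were higher and 23.9% were lower. Over the whole interval from P6 to 8 weeks, 8 genes rose and 1 fell, with a median log2FC of 0.93, where 37.8% of all genes were higher and 36.6% were lower. With the neural marker level (the mean log2 CPM of the 15 markers) as a covariate, an alternative added after the data were seen, 5 genes rose and 1 fell from P6 to P15, 1 rose and 5 fell from P15 to 8 weeks, and 3 rose and 3 fell from P6 to 8 weeks. The shares of all genes given above belong to the fit without the covariate. Shares with it were not counted, so that these numbers of members have no background beside them. Without the covariate the gene that fell was Tgfb2, and the gene that did not pass in any comparison of ages was Smad2. With library size alone in place of TMM, Smad2 passed as lower at P15 than at P6 (log2FC -0.24, FDR 0.0303).

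When a change of more than 2-fold was required, Tgfbr1 and Smad7 passed at P15 against P6, and they were joined at 8 weeks against P6 by Tgfbr2, which was higher, and Tgfb2, which was lower. The background of this stricter call was 4.87% of all genes higher and 4.85% lower at P15 against P6, and 11.5% higher and 12.4% lower at 8 weeks against P6. Between P15 and 8 weeks 0 of the 10 genes passed it, where 1.2% of all genes were higher and 3.07% were lower. The levels of the later age were all above those of the earlier age for 5 genes between P6 and 8 weeks (Tgfbr1, Tgfbr2, Smad3, Smad7 and Ski) and for Smad7 and Ski between P6 and P15. Over all genes the ages did not overlap, in either direction, for 29.6% of genes between P6 and 8 weeks and 13% between P6 and P15. Between P15 and 8 weeks all 10 genes overlapped, where 3.37% of all genes did not. The number of genes that rose from P15 to 8 weeks depended on P15 male 1, a library described further on, without which it was 3.

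**Figure D1:**
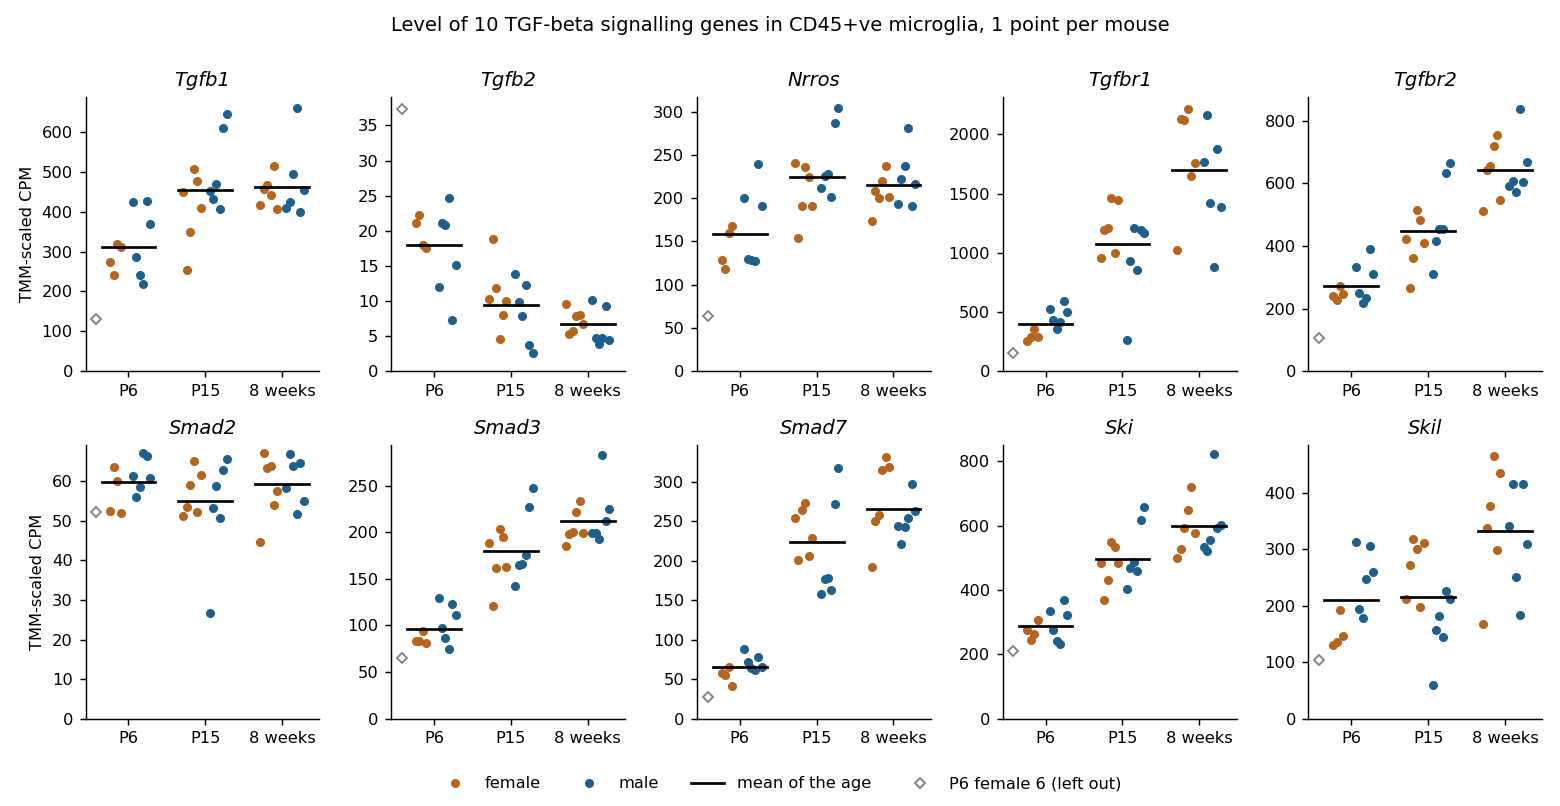
Level of each of the 10 genes in TMM-scaled CPM (vertical axes, from 0) by age, with 1 point per mouse (brown, female; blue, male), the mean of each age as a bar, and the left-out P6 female 6 as an open grey diamond. All P15 and 8-week points of Smad7 and Ski lie above every P6 point among the 34 mice, the 8-week points of Tgfb2 lie low, and the lowest Smad2 point, at 26.7 CPM, is P15 male 1.

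Tgfb1 encodes the main TGF-beta ligand of microglia and lies at chr7:25687002-25705077 (GRCm38). Its level ranged from 218 to 426 CPM at P6 (median 299), from 253 to 645 CPM at P15 (median 451) and from 399 to 661 CPM at 8 weeks (median 449). The ages overlapped, but each of the 12 mice at 8 weeks was above the P6 mean of 311 ± 74.4 CPM (SD, n = 10). Tgfb1 rose between P6 and P15 with a log2FC of 0.56 ± 0.13 (SE, FDR 0.000293), and 8 weeks differed from P15 by a log2FC of 0.03 (95% interval -0.20 to 0.26, FDR 0.84). With the neural covariate the change from P6 to P15 was 0.09 (FDR 0.512) and that from P6 to 8 weeks turned to -0.52 (FDR 0.0188), while the step from P15 to 8 weeks was -0.61 and passed (FDR 0.000176).

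Tgfb2 encodes a second ligand, better known from neurons and glia (chr1:186622792-186705989, GRCm38). Its level was low, ranging from 7.28 to 24.6 CPM at P6 (median 19.4), from 2.60 to 18.9 CPM at P15 (median 9.89) and from 3.92 to 10.1 CPM at 8 weeks (median 6.22). Of the 12 mice at 8 weeks, 7 were below every P6 mouse, and the left-out P6 female 6 had the highest value of all at 37.3 CPM. Tgfb2 fell by a log2FC of -0.95 ± 0.25 from P6 to P15 (FDR 0.00145) and by -1.45 ± 0.25 from P6 to 8 weeks (FDR 5.48e-06). The difference of -0.50 between 8 weeks and P15 did not pass (FDR 0.0823). Tgfb2 was positively related to the neural marker level within P6 and within P15 (r = 0.893 and 0.981, described further on), and with that level as a covariate its change from P6 to P15 was 0.02 (FDR 0.936) and its change from P6 to 8 weeks turned to 1.19 (FDR 0.00652). Per length, Tgfb1 ranked 482 of 17612 genes over the 3 ages and Tgfb2 ranked 10726.

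Nrros, whose product tethers latent TGF-beta to the myeloid cell surface (chr16:32142785-32165594, GRCm38), rose from P6 to P15. Its level ranged from 118 to 239 CPM at P6 (median 145), from 154 to 305 CPM at P15 (median 225) and from 174 to 281 CPM at 8 weeks (median 212). The 3 ranges overlapped, and each of the 12 mice at 8 weeks was above the P6 mean. Nrros rose by a log2FC of 0.52 ± 0.11 from P6 to P15 (FDR 0.000169) and differed by -0.06 between 8 weeks and P15 (95% interval -0.26 to 0.15, FDR 0.658). With the neural covariate the change from P6 to P15 was 0.12 (FDR 0.313) and that from P6 to 8 weeks turned to -0.50 (FDR 0.0168), while the step from P15 to 8 weeks was -0.62 and passed (FDR 6.86e-05).

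Both receptor genes rose at each step in the fit without the neural covariate. Tgfbr1, the signalling type I receptor (chr4:47353222-47414931, GRCm38), ranged from 255 to 596 CPM at P6 (median 386), from 261 to 1460 CPM at P15 (median 1179) and from 882 to 2212 CPM at 8 weeks (median 1766). The lowest P15 value, in P15 male 1, lay within the P6 range, and the other 11 P15 mice were above every P6 mouse. Tgfbr1 rose by a log2FC of 1.51 ± 0.19 from P6 to P15 (FDR 3.17e-08), by 0.67 ± 0.17 from P15 to 8 weeks (FDR 0.00178) and by 2.19 ± 0.19 over the whole interval, a 4.56-fold change (FDR 1.20e-11). With the neural covariate the step from P15 to 8 weeks was 0.09 and did not pass (FDR 0.802). In RPKM it ranked 718 among 17612 genes at P6 and 146 at 8 weeks.

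Tgfbr2, the ligand-binding type II receptor (chr9:116084293-116175360, GRCm38), ranged from 219 to 389 CPM at P6 (median 248), from 266 to 665 CPM at P15 (median 437) and from 512 to 839 CPM at 8 weeks (median 624). The 8-week mice were all above the P6 mice, and all 12 were above the P15 mean. Tgfbr2 rose by a log2FC of 0.75 ± 0.13 from P6 to P15 (FDR 6.12e-06), by 0.52 ± 0.12 from P15 to 8 weeks (FDR 0.000527) and by 1.27 ± 0.13 over the whole interval, a 2.41-fold change (FDR 2.03e-10). With the neural covariate the step from P15 to 8 weeks turned to -0.22 (FDR 0.0438), the change from P6 to P15 was 0.18 (FDR 0.0428) and that from P6 to 8 weeks was -0.04 (FDR 0.832).

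The receptor-activated SMADs differed from each other. Smad2 (chr18:76241580-76310963, GRCm38) ranged from 52.0 to 67.3 CPM at P6 (median 60.5), from 26.7 to 65.6 CPM at P15 (median 56.1) and from 44.6 to 67.2 CPM at 8 weeks (median 60.9). These ranges overlapped at all ages. The log2FC of Smad2 was -0.11 at P15 against P6 (95% interval -0.30 to 0.08, FDR 0.342) and -0.0026 at 8 weeks against P6 (95% interval -0.20 to 0.19, FDR 0.982). With the neural covariate these were -0.38 (FDR 0.00678) and -0.62 (FDR 0.012), and both passed. Smad3 (chr9:63646767-63757994, GRCm38), which pairs with the same receptors, ranged from 74.8 to 129 CPM at P6 (median 90.7), from 121 to 248 CPM at P15 (median 171) and from 185 to 283 CPM at 8 weeks (median 200.1). Of the 12 P15 mice 11 were above every P6 mouse, and all 12 mice at 8 weeks were. Smad3 rose by a log2FC of 0.93 ± 0.11 from P6 to P15 (FDR 4.28e-09), by 0.24 ± 0.10 from P15 to 8 weeks (FDR 0.0374) and by 1.17 ± 0.11 over the whole interval (FDR 1.57e-11). Without P15 male 1 the step of Smad3 from P15 to 8 weeks was 0.19 and did not pass (FDR 0.127). It was 0.22 and also did not pass when P6 female 2, 3 or 5 was left out (FDR 0.0519 to 0.054), and it turned to -0.32 with the neural covariate (FDR 0.00565). The change of Smad3 from P6 to 8 weeks was 0.19 with that covariate and did not pass (FDR 0.25).

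Smad7, the inhibitory SMAD and a feedback target of the pathway (chr18:75367529-75395935, GRCm38), changed the most between P6 and P15. Its level ranged from 41.2 to 88.8 CPM at P6 (median 65.1), from 157 to 317 CPM at P15 (median 217) and from 193 to 332 CPM at 8 weeks (median 256). No P15 or 8-week mouse came within the P6 range. Smad7 rose by a log2FC of 1.83 ± 0.12 from P6 to P15, a 3.56-fold change (FDR 3.10e-14), and by 2.08 ± 0.12 from P6 to 8 weeks (FDR 6.33e-16). The further difference of 0.25 ± 0.11 between P15 and 8 weeks did not pass (FDR 0.0594). It passed in 4 of the alternatives, and with GC content centred within each library it was 0.40 (FDR 0.00759), whereas with the neural covariate it turned to -0.26 (FDR 0.117).

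The corepressor genes took different courses. Ski (chr4:155154075-155222592, GRCm38) ranged from 232 to 368 CPM at P6 (median 276), from 371 to 659 CPM at P15 (median 483) and from 499 to 822 CPM at 8 weeks (median 585). The P15 mice and the 8-week mice were all above the P6 mice. Ski rose by a log2FC of 0.80 ± 0.10 from P6 to P15 (FDR 5.54e-08), by 0.28 ± 0.10 from P15 to 8 weeks (FDR 0.0177) and by 1.08 ± 0.10 over the whole interval (FDR 7.19e-11). Without P15 male 1 the step from P15 to 8 weeks was 0.22 and did not pass (FDR 0.0641), and with the neural covariate it turned to -0.26 (FDR 0.0239). The change of Ski from P6 to 8 weeks was 0.14 with that covariate and did not pass (FDR 0.436).

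Skil, which encodes SnoN, the relative of Ski (chr3:31095058-31122577, GRCm38), ranged from 131 to 313 CPM at P6 (median 193), from 60.3 to 318 CPM at P15 (median 211) and from 168 to 465 CPM at 8 weeks (median 339). The P6 and P15 ranges overlapped almost wholly, and 7 of the 12 mice at 8 weeks were above every P15 mouse. Skil differed by a log2FC of 0.11 between P15 and P6 (95% interval -0.25 to 0.46, FDR 0.617) and rose by 0.67 ± 0.17 from P15 to 8 weeks (FDR 0.00201). With the neural covariate the step from P15 to 8 weeks was 0.14 and did not pass (FDR 0.703), and the change from P6 to 8 weeks, 0.78 without it (FDR 0.000359), was -0.16 (FDR 0.754).

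Levels within the same library were set against each other as ratios of RPKM, which do not depend on how libraries are scaled. The ratio of Tgfb2 to Tgfb1 was 0.0492 at P6, 0.0165 at P15 and 0.0122 at 8 weeks (geometric means). Its log2 difference from P6 was -1.58 for P15 (permutation test, adjusted p = 0.0043) and -2.01 for 8 weeks (permutation test, adjusted p = 0.00012). At P15 Tgfb2 was positively and Tgfb1 negatively related to the neural marker level (r = 0.981 and -0.852). With that level as a covariate their log2FC from P6 to P15 were 0.02 and 0.09. No ratio was fitted with the covariate, and the part of neural cells in the ratios was not tested. The receptor ratio, Tgfbr2 to Tgfbr1, went from 0.551 at P6 to 0.347 at P15 and 0.31 at 8 weeks, with log2 differences from P6 of -0.67 (permutation test, adjusted p = 0.0069) and -0.83 (permutation test, adjusted p = 0.00063). The ratio of Smad3 to Smad2 was 2.52 at P6, 5.19 at P15 and 5.68 at 8 weeks. Its log2 differences from P6 were 1.04 and 1.17 (permutation tests, adjusted p = 0.00012 for each), and no P15 or 8-week mouse had a ratio within the P6 range. The ratio of Skil to Ski was lower at P15 (0.234) than at P6 (0.406), with a log2 difference of -0.79 (permutation test, adjusted p = 0.005), and at 8 weeks it was 0.308 (permutation test against P6, adjusted p = 0.099). None of the 4 ratios differed between P15 and 8 weeks at an adjusted p under 0.05, and p-values were adjusted over the 12 two-sided tests.

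**Figure D2:**
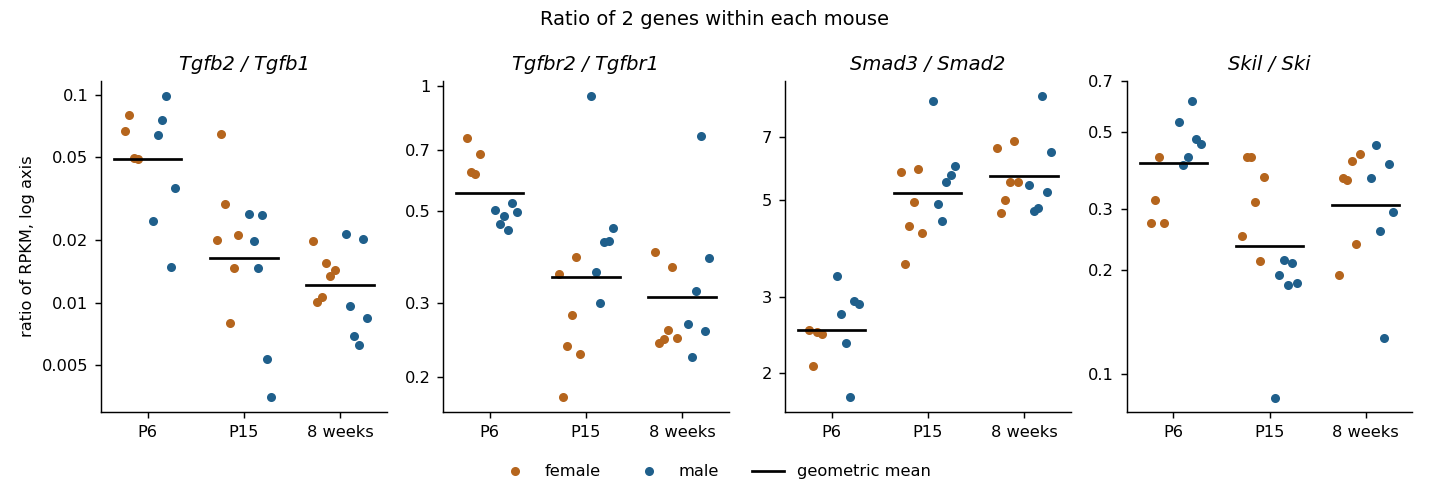
Ratio of RPKM of each pair of genes within each mouse (vertical axes, log scale) by age, with 1 point per mouse (brown, female; blue, male) and the geometric mean of each age as a bar. The Smad3 to Smad2 ratio has no P15 or 8-week mouse within the P6 range, and the highest P15 receptor ratio and the lowest P15 Skil to Ski ratio are both from P15 male 1.

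No member differed between males and females at any age at an FDR under 0.05 in the edgeR quasi-likelihood fit. Over all genes 0.0511% were called between the sexes at P6, 0.0681% at P15 and 0.114% at 8 weeks. At an unadjusted p under 0.05, 3 members were higher in males at P6, namely Tgfbr1 (log2FC 0.67), Smad7 (0.38) and Skil (0.72), each with an FDR of 0.696 in edgeR, where 7.1% of all genes reached that p. At P15 Skil was lower in males by this measure (log2FC -0.71, FDR 0.252 in edgeR, where 18.2% of all genes reached that p), with 60.3 to 226 CPM in males and 198 to 318 CPM in females. At 8 weeks no member reached an unadjusted p under 0.05, where 2.94% of all genes did. The change with age was not called different between the sexes for any member (lowest FDR 0.406 in edgeR, unadjusted p under 0.05 for 3 members), and over all genes 0% were called for this difference while 11.8% had an unadjusted p under 0.05. With limma-voom, DESeq2 and each other alternative that was run for the sexes, the number of members called between them was also 0. The fit of age without sex and the fits of 2 ages alone were not run for them.

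The neural marker level moved with most members at P6 and P15 and with few at 8 weeks. An adjusted p under 0.05 for Pearson's r was reached by 9 of the 10 members in P6 mice, 7 in P15 mice and 3 in 8-week mice, and for Spearman's rho by 5, 8 and 1. Over all genes, an r at least as far from 0 as the smallest that passed (0.725, 0.659 and 0.607) was found for 29.8% of genes in P6 mice, 35.2% in P15 mice and 14.9% in 8-week mice. Tgfb2 was positively related to it, with Pearson's r of 0.893 at P6 (n = 10, permutation test, adjusted p = 0.00254) and 0.981 at P15 (n = 12, permutation test, adjusted p = 0.0001). Spearman's rho for Tgfb2 was 0.588 at P6 (permutation test, adjusted p = 0.109) and 0.958 at P15 (permutation test, adjusted p = 0.0003). Without the 2 mice farthest from the median marker level, r was 0.593 at P6 and 0.951 at P15, and at 8 weeks r was 0.338 over 12 mice. All other members had a negative r at each age. Tgfbr2 was negatively related to the marker level at every age, with r of -0.956 for P6 mice, -0.94 for P15 mice and -0.835 for 8-week mice (permutation tests, adjusted p = 0.0012, 0.0001 and 0.00225) and rho of -0.867, -0.902 and -0.853 (permutation tests, adjusted p = 0.00973, 0.0016 and 0.00384). Without the 2 farthest mice its r was -0.861, -0.881 and -0.894. Of the 30 relations of 10 members and 3 ages, 19 had an adjusted p under 0.05 for r and 14 for rho. The microglial markers were higher at P15 and 8 weeks than at P6 over the same interval, and their part in these relations was not tested.

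**Figure D3:**
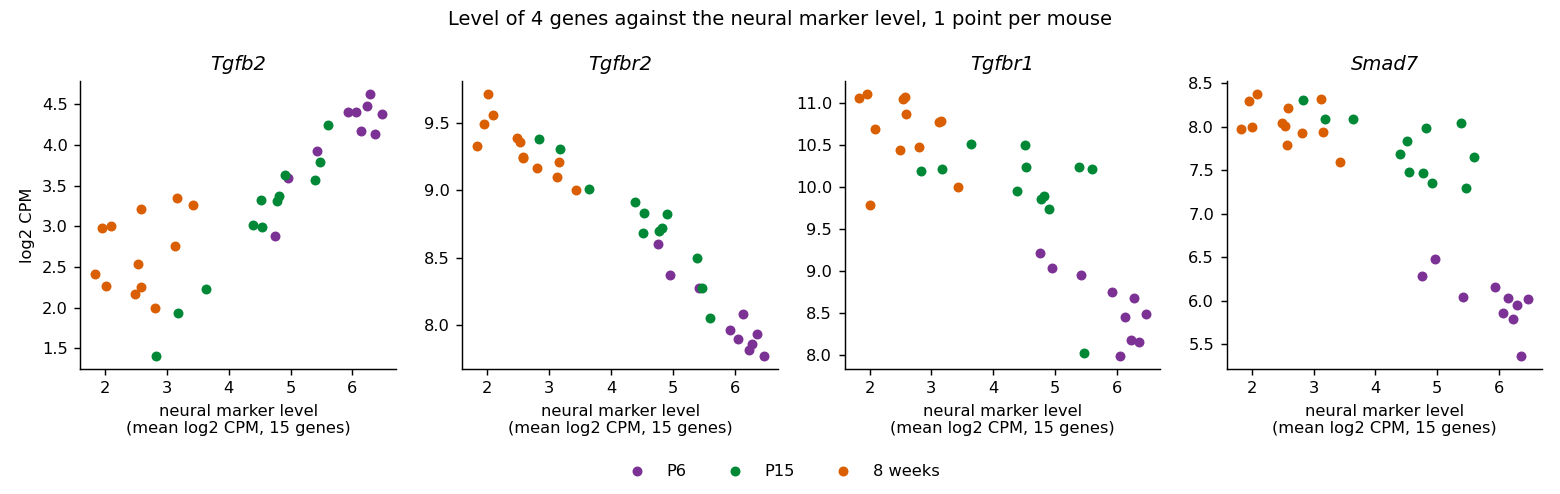
Level of Tgfb2, Tgfbr2, Tgfbr1 and Smad7 (log2 CPM, vertical axes) against the neural marker level (mean log2 CPM of 15 genes), with 1 point per mouse coloured by age. Tgfb2 rises with the marker level at P6 and P15, Tgfbr2 falls with it within each age, and for Smad7 the P6 mice lie below P15 mice of similar marker level.

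The fit with the neural marker level as a covariate gave different changes for different members. Of the 10 genes, Tgfbr1 and Smad7 still had a log2FC above 1 from P6 to P15, with 1.06 (FDR 0.000104) and 1.44 (FDR 2.65e-12). Smad3 (0.51), Ski (0.40) and Tgfbr2 (0.18) also still rose in that comparison (FDR 1.65e-06, 8.05e-05 and 0.0428). Tgfb1, Nrros and Tgfb2 no longer passed, and Smad2 passed with a log2FC of -0.38 (FDR 0.00678). At 8 weeks against P15 the covariate turned the direction for 7 of the 10 genes, and the gene that rose was Tgfb2 (log2FC 1.17, FDR 0.000314). How many of all genes turned or were called with the covariate was not counted. At 8 weeks against P6 the genes that rose with the covariate were Tgfb2, Tgfbr1 (1.15, FDR 0.0136) and Smad7 (1.18, FDR 9.68e-06), and those that fell were Tgfb1, Nrros and Smad2. The marker level ranged from 4.75 to 6.47 at P6 and from 1.83 to 3.43 at 8 weeks, so that these ages share no value of the covariate and the last comparison rests on extrapolation. At P15 the range was 2.83 to 5.60, with 2 of the 12 mice (P15 male 5 and P15 male 6) within the 8-week range, so that the comparison of 8 weeks with P15 also rests largely on extrapolation. Of the P6 mice, only P6 male 1, P6 male 5 and P6 male 6 lay within the P15 range. Every P6 female lay above it (6.06 to 6.36), so that the comparison of P15 with P6 rests in part on extrapolation.

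**Figure D4:**
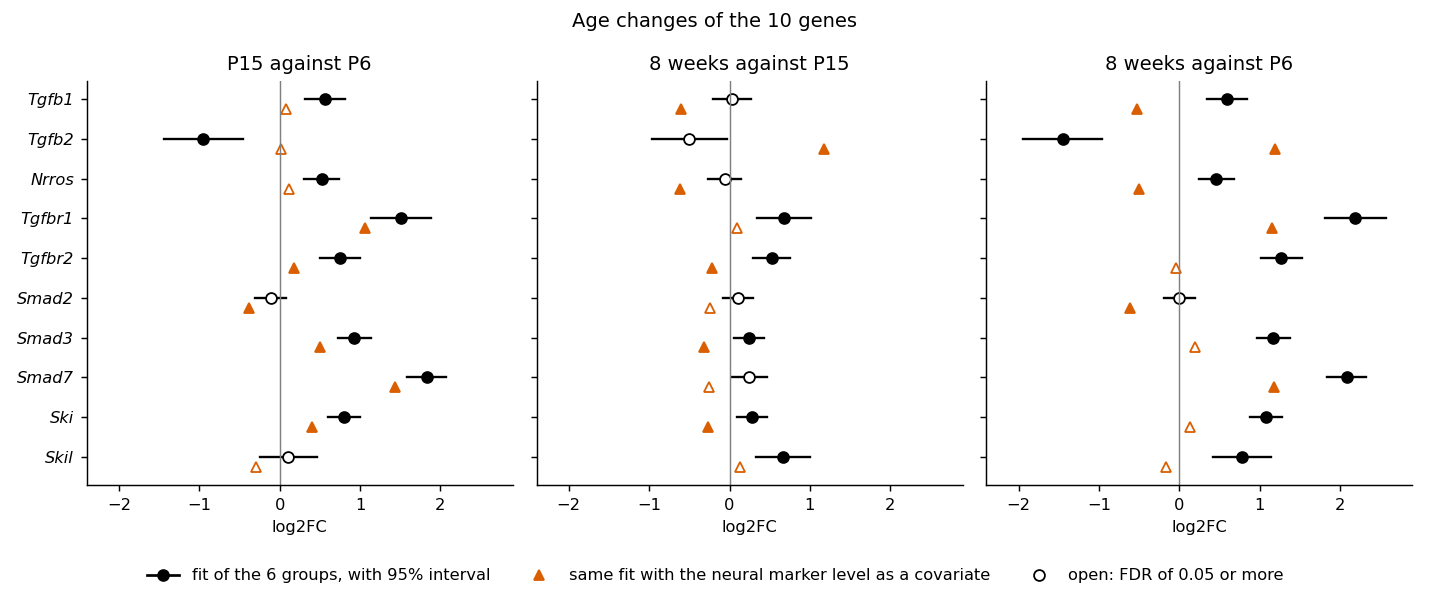
Change of each gene between ages (log2FC, horizontal axes) as circles with 95% intervals, and the value of the same fit with the neural marker level as a covariate as orange triangles, open where the FDR was 0.05 or more. Circles of Tgfbr1 and Smad7 lie farthest to the right at P15 against P6, and their triangles are also to the right of 0.

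Members also moved together between mice of the same age and sex. After the mean of each group was subtracted, Tgfb1, Nrros, Tgfbr2, Smad3 and Ski were alike over the 34 mice, with r between 0.829 and 0.936 over their 10 pairs. Tgfbr1, Smad2 and Skil were alike in the same way, with r between 0.836 and 0.932 over 3 pairs, whereas r between the genes of these 2 sets was between 0.103 and 0.49. These sets were picked from the values, and all genes share the depth and composition of their libraries, so that the correlations are a description. Tgfb2 was negatively related to each of the other 9 genes, with r from -0.796 (Tgfbr2) to -0.382 (Skil).

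Tgfbr1, Smad2 and Skil moved with the base composition of the libraries. For each library the deviation of 10116 genes from their group means was fitted against the GC content of the longest transcript of each gene, which gave a GC slope per library. The slope was highest in P15 male 1 (0.69 on the log2 scale per 10 percentage points of GC), 8 weeks male 4 (0.49) and 8 weeks female 1 (0.30), and it was between -0.26 and 0.24 in the other 31 libraries. Tgfbr1, Skil and Smad2 have the lowest GC contents of the 10 genes (41.0%, 41.0% and 44.9%, against a median of 49.5% over all genes). Their deviations were negatively related to the slope, with Pearson's r of -0.887, -0.844 and -0.827 (n = 34, permutations within groups, adjusted p = 5e-05, 5e-05 and 0.0001) and Spearman's rho of -0.728, -0.699 and -0.71 (permutations within groups, adjusted p = 0.000267 for each). Without P15 male 1 and 8 weeks male 4, the 2 libraries farthest from the median slope, r was -0.755, -0.724 and -0.696. For the other 7 genes r was between -0.228 and 0.324, with adjusted p of 0.151 or more (permutations within groups). Of these, Tgfb1 had a positive rho of 0.433 (permutations within groups, adjusted p = 0.027). The slope was itself fitted from the deviations of genes against their GC content. Genes of low GC content therefore tend to a negative r by construction. The share of all genes that reach such an r was not computed, so that the p-values do not set Tgfbr1, Skil and Smad2 apart from other genes of low GC content.

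In P15 male 1 Tgfbr1 was 1.68 below its group mean on the log2 scale (deviation -1.68), Skil deviated by -1.33 and Smad2 by -0.93. Without this library Tgfbr1 rose by 1.61 from P6 to P15 and by 0.55 from P15 to 8 weeks (FDR 2.35e-11 and 0.000885), and without the 3 libraries of highest slope it rose by 2.27 from P6 to 8 weeks. When GC content was centred within each library, Tgfbr1 rose by 1.52 from P6 to P15, by 0.39 from P15 to 8 weeks and by 1.91 over the whole interval (FDR 2.27e-12, 0.0047 and 5.87e-15), and Skil still rose from P15 to 8 weeks, by 0.37 (FDR 0.00787). Before this step the log2FC from P15 to 8 weeks was 0.67 for each of these genes. The part of base composition in the differences between mice was not tested further.

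**Figure D5:**
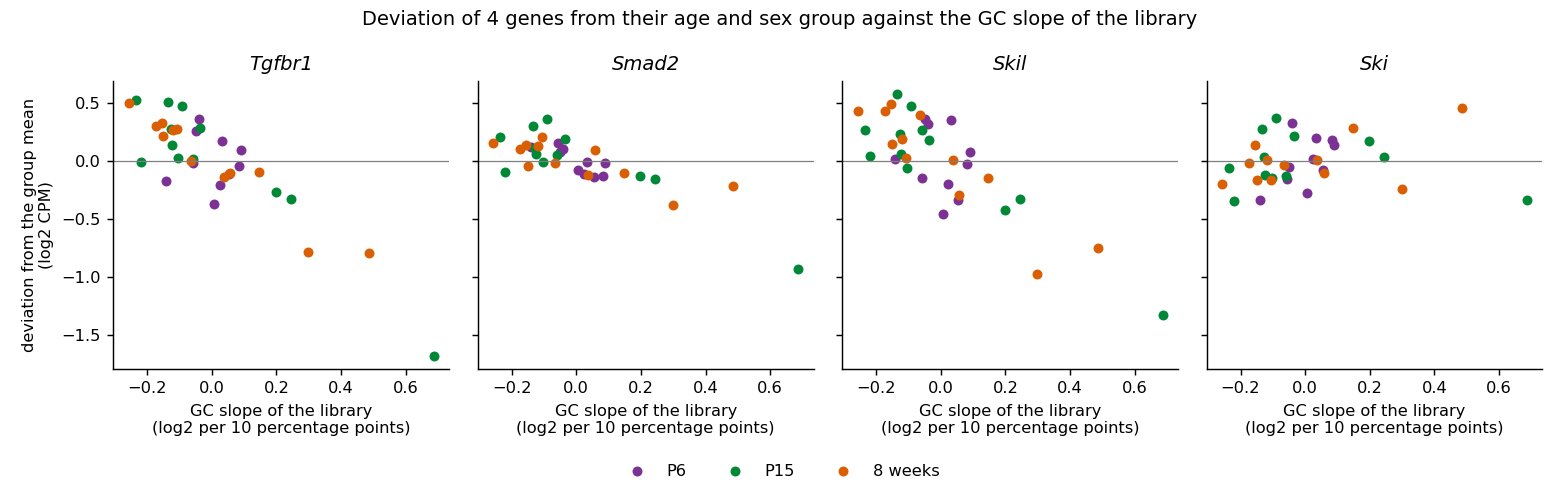
Deviation of Tgfbr1, Smad2, Skil and Ski from the mean of their age and sex group (log2 CPM, vertical axis) against the GC slope of the library (log2 per 10 percentage points of GC), with 1 point per mouse coloured by age. The 3 libraries with the highest slopes are low for Tgfbr1, Smad2 and Skil, and Ski (r = 0.139) is shown for comparison.

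For each member the 3 genes most alike over the 34 mice were found in the same way, as Pearson's r of log2 CPM after the group mean was subtracted. The nearest genes to Tgfb1 were Laptm5 (r = 0.984), Fcrls (0.979) and Unc93b1 (0.978), of which Fcrls is a microglial marker. Those nearest to Tgfb2 were Cdh2 (0.969), Ptprg (0.957) and Egfr (0.951), of which Cdh2 encodes N-cadherin, an adhesion protein of neural cells. Tgfbr1 was nearest to Asph (0.987), Adam10 (0.985) and Ptbp3 (0.985), and Tgfbr2 to Tgfbrap1 (0.963), St6gal1 (0.962) and Csf2rb (0.961). The gene Tgfbrap1 encodes a protein that binds TGF-beta receptors. Smad7 was nearest to Atf3 (0.925), H2-Q4 (0.876) and Btg2 (0.873), and Atf3 and Btg2 are early response genes. Nrros was nearest to Tfe3 (0.949), Smad2 to Copb1 (0.962), Ski to Tln2 (0.947) and Skil to Mef2a (0.977). Among the genes nearest to Smad3 were Hvcn1 (0.947), a proton channel of immune cells, and Tln2 (0.946).

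Beyond the 10 genes, 118 further genes of the pathway and its targets were listed, of which 113 passed the filter. From P6 to P15, 48 of the 113 rose and 23 fell (median log2FC 0.19), and from P15 to 8 weeks 26 rose and 14 fell (median 0.10). From P6 to 8 weeks 54 rose and 31 fell (median 0.23). Over all genes, 30.4% rose and 31.4% fell from P6 to P15, 24% and 23.9% from P15 to 8 weeks, and 37.8% and 36.6% from P6 to 8 weeks. With the neural marker level as a covariate the numbers were 47 and 26, 21 and 33, and 32 and 29, and with library size alone in place of TMM they were 43 and 32 from P6 to P15. The shares of all genes were counted only in the fit with TMM and without the covariate, and do not apply to these numbers. The list of 11 tested ligands of the wider family had 1 gene that rose and 8 that fell from P6 to 8 weeks. Bmp1, a protease that also processes latent TGF-beta binding protein, was at 53.9 ± 6.91 CPM at P6 (SD, n = 10), 68.0 ± 22.6 CPM at P15 (n = 12) and 22.7 ± 4.57 CPM at 8 weeks (n = 12). It was higher at P15 than at P6 (log2FC 0.32, FDR 0.037) and fell from P15 to 8 weeks (log2FC -1.59, FDR 1.10e-11) and from P6 to 8 weeks (log2FC -1.27, FDR 3.39e-10). Bmp2 was at 24.5 ± 11.2 CPM in P6 mice, 7.82 ± 2.43 CPM in P15 mice and 8.58 ± 1.58 CPM in 8-week mice (log2FC -1.35, FDR 1.67e-08), and Inhba rose from 0.378 ± 0.205 to 1.22 ± 0.565 CPM (log2FC 1.74, FDR 0.000252).

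Of the 16 tested genes of the latent complex and its activation, 6 rose and 5 fell from P6 to 8 weeks, near the shares of all genes (37.8% and 36.6%). Itgb5, an integrin subunit that pairs with Itgav to bind latent TGF-beta, rose from 591 ± 124 CPM at P6 to 1950 ± 383 CPM at 8 weeks (log2FC 1.75 ± 0.13, FDR 2.11e-13). Ltbp2, at 2.08 ± 1.5 CPM at P15, fell from 1.58 ± 0.916 CPM at P6 to 0.374 ± 0.297 CPM at 8 weeks (log2FC -2.07, FDR 0.000245). Among 12 other receptors of the family 9 rose and 1 fell. Eng, a coreceptor that modulates TGF-beta signalling, rose from 54.0 ± 8.56 to 217 ± 33.9 CPM (log2FC 2.01 ± 0.12, FDR 3.20e-16), and Acvr1c (log2FC 2.81) and Bmpr1b (1.57) rose from lower levels (0.299 and 6.34 CPM at P6). Cd109, a coreceptor that promotes TGF-beta receptor breakdown, fell from 2.23 ± 1.38 to 0.176 ± 0.0728 CPM (log2FC -3.68, FDR 2.34e-11). The 5 other SMADs split into 3 that rose and 2 that fell. The 14 tested inhibitors and turnover genes split into 5 and 4, the 16 adaptors and nuclear partners into 5 and 2, and the 9 genes of the non-SMAD branch into 4 and 3. Beside the same 37.8% and 36.6% of all genes, these splits describe the lists and no more.

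Of 17 genes listed here as targets of TGF-beta, among them Smad7, Skil, Id1, Id2 and Id3, 8 rose and 6 fell from P6 to 8 weeks (median log2FC 0.37), where 37.8% of all genes rose, 36.6% fell and their median was 0.038. Whether TGF-beta induces each of them in microglia was not tested. Pmepa1, a target that feeds back on the receptor SMADs, rose from 103 ± 19.8 CPM at P6 to 289 ± 44.1 at P15 and 371 ± 53.6 at 8 weeks (log2FC from P6 to 8 weeks 1.86 ± 0.11, FDR 2.27e-16).

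Of the microglial genes known to depend on TGF-beta, most were higher in older mice. All 18 were called at P15 against P6 and at 8 weeks against P6, with 17 higher and 1 lower in each (median log2FC 1.22 and 1.55), where 30.4% and 37.8% of all genes rose and 31.4% and 36.6% fell. The lower gene was Gas6, a ligand of the Mertk receptor (log2FC -0.42 and -1.23), named here after its values were seen. The largest rises to 8 weeks were those of Tmem119 (log2FC 3.10 ± 0.15), Slc2a5 (2.54 ± 0.14), Mertk (2.11 ± 0.15) and P2ry13 (2.08 ± 0.14). Tmem119 went from 306 ± 68.7 CPM (SD) in P6 mice to 2340 ± 528 CPM in P15 mice and 2570 ± 518 CPM in 8-week mice. From P15 to 8 weeks 9 of the 18 rose and 2 fell, where 24% of all genes rose and 23.9% fell. Each of the 6 microglial markers is in this list, and the neural marker level was lower at 8 weeks than at P6, so that the list is a description of the same libraries and not a separate line of evidence on the pathway.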

How the data were processed

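mRNA libraries of CD45+ve microglia, 1 per mouse, were compared. The authors aligned directional reads to GRCm38 with STAR, counted them by strand with featureCounts and deposited 1 table of raw counts per gene; the annotation release is not given in the sources used here. Submitters' notes name fastp 0.20.0. Groups were age and sex, read from the labels, which name no batch, and P6 female 6 was left out as in the study.

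Counts were tested in R 4.3.3 with edgeR 4.0.16 (quasi-likelihood, robust) after a filter of at least 0.5 CPM in at least 5 mice and TMM scaling, with a mean per age and sex group. Age contrasts average both sexes, and the FDR is that of Benjamini and Hochberg over 17612 genes (threshold 0.05). A change past 2-fold was tested with glmTreat. Log2 levels used a prior count of 2, and 95% intervals are the log2FC ± 1.96 SE. Ratios and correlations were tested with 100000 two-sided permutations in Python 3.11.15 (numpy 2.4.6, pandas 2.3.3). Alternatives used limma 3.58.1, DESeq2 1.42.0, other scalings, filters and samples. The scripts were tested on simulated data.

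Totals had a median of 32742525 counts, and 3 counts, the limit that a count of 0 allows, were 0.077 to 0.129 CPM over the libraries, for counting error only. Of 85 pairs of mice within a group, the closest differed by a chi-square of 11.8 per gene, so no library was a copy of another. Names came from GENCODE M21, which named 55141 of the 55401 identifiers. The named genes are all 10 members, up to 4 genes per list past 2-fold in any age comparison, ordered by their change from P6 to 8 weeks, and the 3 genes most like each member. A few genes that meet this rule are not reported here. The members and lists were chosen with earlier results of these data known. Each mouse was a separate animal, and nothing further in the labels describes cultures or preparations shared between mice.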

Additional observations from a re-analysis of the deposited data

Results flagged for a closer look

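Among 60 groups of 4 to 6 mice (10 genes in 6 age and sex groups), 4 held a mouse whose gap to the nearest other was larger than Dixon's 95% critical value, where chance flags about 1 in 20 groups, or 3 of 60. Of the 4, 3 were in the same library, P15 male 1. Its Tgfbr1 level was 261 CPM, with 856 to 1210 CPM in the other P15 males, its Smad2 level was 26.7 CPM (50.6 to 65.6 in the others), and its Skil level was 60.3 CPM (145 to 226 in the others). The other was Ski in 8 weeks male 4, at 822 CPM, with 521 to 601 CPM in the other 8-week males. These libraries also had the 2 highest GC slopes, 0.69 in P15 male 1 and 0.49 in 8 weeks male 4 (log2 per 10 percentage points of GC). The part of base composition in these values was not tested.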

How the results depend on the processing

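Of 184 comparisons of a count of calls with its alternatives, 176 were within 1.5 times the reported count and 8 were not. Of 1124 comparisons of a single value, 1053 kept direction and call, 35 lost the call, 11 gained it and 25 changed direction. The cause was not tested unless the construction of the alternative shows it. With the 2-fold threshold, which is stricter by construction, the 10 genes gave 2, 0 and 4 calls and the other pathway genes 13, 3 and 25 (P15 against P6, 8 weeks against P15, 8 weeks against P6). Without P15 male 1 the members called at 8 weeks against P15 were 3, and also 3 without P15 male 1, 8 weeks female 1 and 8 weeks male 4. Leaving out each P6 female in turn gave 8 members at P15 against P6, 4 to 5 at 8 weeks against P15 (Smad3 was not called without P6 female 2, 3 or 5) and 9 at 8 weeks against P6. The alternatives without whole P15 or 8-week libraries, with the neural covariate and with GC centring were chosen after seeing the data.

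The neural covariate turned Tgfb2 (0.0207) and Skil (-0.298) at P15 against P6. At 8 weeks against P15 it turned Tgfb1 (-0.609), Tgfb2 (1.17), Tgfbr2 (-0.216), Smad2 (-0.238), Smad3 (-0.315), Smad7 (-0.255) and Ski (-0.262). At 8 weeks against P6 it turned Tgfb1 (-0.523), Tgfb2 (1.19), Tgfbr2 (-0.038), Nrros (-0.497) and Skil (-0.162). Library size alone, which shifted the median of all genes to -0.14 at P15 against P6 and -0.103 at 8 weeks against P6, turned Skil at P15 against P6 (-0.0157) and, between the sexes at 8 weeks, Tgfbr2 (-0.0143) and Ski (-0.0127). GC centring turned Nrros (0.044) and Smad2 (-0.00413) at 8 weeks against P15 and gave 6 members called there, Smad7 among them. Library size alone gave 9 members at P15 against P6, Smad2 among them. Tgfb1 at 8 weeks against P15 was -0.00832 without P15 male 1 and -0.0512 without the 3 libraries. Smad2 at 8 weeks against P6 was 0.00578 with all 35 mice and 0.016 without the 3 libraries, and its difference between the sexes at P15 was 0.0528 without P15 male 1. The correlation of Skil with the neural marker level at P15 was 0.0311 without the 3 libraries, where it had been -0.268, and the Skil to Ski ratio then differed between P15 and 8 weeks (0.455, permutation test, adjusted p = 0.033).

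With a replicate block the counts of members were 8, 5 and 9 and those of pathway genes 69, 41 and 85. Over 80 same-numbered pairs of mice the correlation of deviations ran from -0.536 to 0.691, 27 were over 0.1, and 2 of 34 mice matched their own number best. The labels name no batch, and whether same-numbered mice shared a preparation is not known. The lowest count of Tgfb2, the member with the fewest counts, was 57, in a P15 male.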

Other observations

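The 5 SMADs outside the 10 genes, named here as a whole list after their values were seen, differed in direction between P6 and 8 weeks. Smad1, a receptor SMAD of the BMP branch, was at 39.8 ± 3.11 CPM at P6 (SD, n = 10) and 60.4 ± 4.44 CPM at 8 weeks (n = 12), with a log2FC of 0.60 ± 0.07 (edgeR, FDR 2.66e-09). Smad5, of the same branch, was at 76.7 ± 9.09 and 57.8 ± 5.34 CPM (log2FC -0.42, edgeR, FDR 8.88e-06), and Smad4, the shared partner of the receptor SMADs, was at 78.7 ± 12.3 and 60.0 ± 3.88 CPM (log2FC -0.40, edgeR, FDR 1.81e-05). The inhibitory Smad6 (3.02 ± 0.648 and 7.25 ± 2.03 CPM) and Smad9 (1.20 ± 0.401 and 2.97 ± 1.22 CPM) were higher at 8 weeks, each with a log2FC of 1.26 (edgeR, FDR 3.16e-08 and 0.000165). Over all genes 37.8% rose and 36.6% fell in this comparison.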
